A study of Homo sapiens with 18 samples.

Results

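The mitosis genes are 40 human genes whose products drive or monitor cell division. They were listed by symbol with no threshold on any measured value, in a list drawn up when earlier results of these data were known, and span 8 roles from cyclin B and its kinase CDK1 to the proteins of cytokinesis. All 40 symbols were found among the 58051 genes counted in every library, and all 40 were among the 14186 genes abundant enough to test. RNA was sequenced from hTERT RPE-1 cells, which derive from human retinal pigment epithelium and divide without limit because they carry telomerase. The etoposide groups, sampled at time points 0, 20 and 40, came from serum-starved cells exposed for 30 min to 50 µM etoposide, a drug that traps topoisomerase II on broken DNA. The DMSO groups, sampled at the same 3 time points, received the solvent in its place. Cells of both arms had been kept for 48 h in 0.1% serum after growth in 10% serum, and 10 µM triptolide, an inhibitor of the TFIIH helicase XPB that stops new transcription, was used in both arms. Each of the 6 groups held 3 independent replicates, 18 libraries in all. The labels place the cells in G0/G1. They state neither the unit of the time points nor whether triptolide had been added at time point 0, and no proliferating culture was analysed, so levels in starved cells could be set only against other genes of the same libraries. All groups come from 1 cell line.

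During mitosis CDK1, bound to cyclin B and switched on by CDC25 phosphatases, phosphorylates the proteins that condense chromosomes and build the spindle. The spindle checkpoint holds CDC20 back until every kinetochore is attached. CDC20 then lets the anaphase-promoting complex mark cyclin B and securin for destruction, which frees separase to part the sister chromatids. Genes of this programme are silenced in resting cells by the DREAM complex and switched on late in the cycle by B-MYB with MuvB and by FOXM1, acting at an element named CHR (cell cycle genes homology region) that often lies close downstream of CCAAT boxes bound by NF-Y. p53 and its target p21, encoded by CDKN1A, can switch the same genes off through DREAM after DNA damage.

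Libraries held 7957691 to 11580219 counts over 17854 to 20410 genes with a count. A total of 3 counts, taken as the detection floor, was worth 0.259 to 0.377 CPM, counts scaled to library size. The mitosis genes took 0.402% to 0.545% of the counts of a library. The second DMSO library of time point 0 stood apart in its share of counts on genes of antisense type, 1.42% against 0.217% to 0.253% in the other libraries, and the second etoposide library of time point 20 had the fewest genes with a count. Of 13 genes that mark retinal pigment epithelium, 6 had a median of at least 1 CPM, among them the transcription factors MITF at 38.4 CPM and OTX2 at 27.5 CPM, while the visual cycle enzyme RPE65 had a median of 0.109 CPM and TTR and DCT had 0 counts in all 18 libraries. BEST1, also among the 6, varied widely between libraries, from 0.51 to 2454 CPM with a median of 5.72 CPM. Of 9 fibroblast markers 6 had a median of at least 1 CPM, with THY1 at 520 CPM. None of 7 markers of other epithelia and none of 6 blood markers did.

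Mitosis RNAs were abundant for these libraries. Per kilobase of each gene's principal transcript, the 40 genes had a median of 30.4 CPM, against 9.28 CPM for the 12163 tested protein-coding genes, and 36 of the 40 lay above the median gene. These per-kilobase levels are means over the 18 libraries and are given as a description. The regulators of the anaphase-promoting complex and of separase stood highest, with a median of 107 CPM per kilobase over 4 genes. PTTG1, which encodes securin, the inhibitor of separase, reached 156 CPM per kilobase, at the 96.8th percentile of protein-coding genes. UBE2C, the ubiquitin-conjugating enzyme of the complex, reached 147 CPM per kilobase. ESPL1, which encodes separase itself, had 6.94 CPM per kilobase and belonged to the same role.

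**Figure D1:**
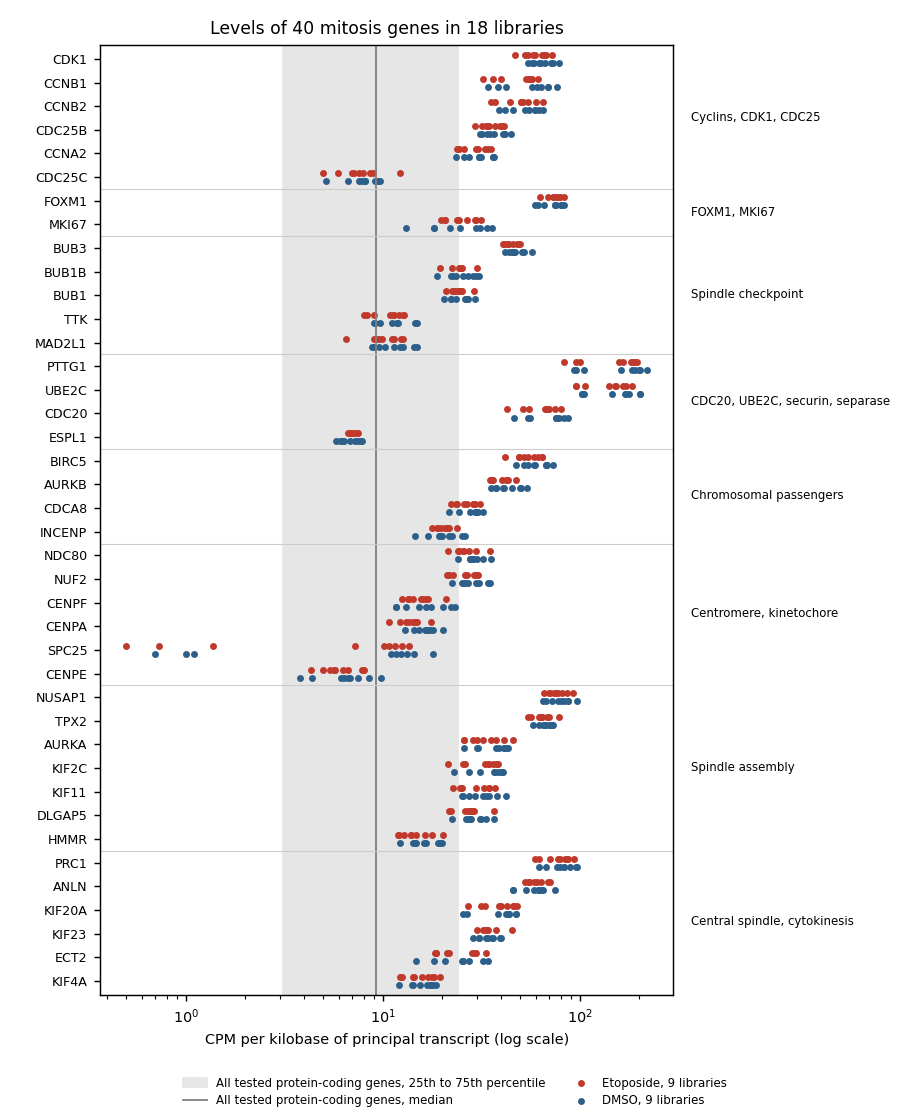
Level of each of the 40 mitosis genes in CPM per kilobase of principal transcript, on a log axis, grouped by role, with points for 9 etoposide libraries above 9 DMSO libraries, a line at the median tested protein-coding gene and shading from its 25th to 75th percentile. By their means, nearly all genes lie to the right of the line at 9.28, from PTTG1 at 156 down to CENPE at 6.38.

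The plot of levels by role shows the order of the other groups. FOXM1, the transcription factor of late-cycle genes, and MKI67, the source of the Ki-67 proliferation antigen, had a median of 49.5 CPM per kilobase. Cyclins, CDK1 and CDC25 phosphatases followed with 44.1, cytokinesis genes with 37.0, the chromosomal passenger complex of AURKB, BIRC5, INCENP and CDCA8 with 34.6, and spindle assembly genes with 33.5. Spindle checkpoint genes had 24.5 and centromere and kinetochore genes had 15.7 CPM per kilobase. The lowest single genes were CENPE, a kinetochore motor, at 6.38, separase, CDC25C at 7.9 and SPC25, a subunit of the NDC80 kinetochore complex, at 8.44 CPM per kilobase. The mean of SPC25 pools 1.22 CPM in replicate 3 with 17.5 CPM in replicate 1 and 15.6 CPM in replicate 2, so replicate 3 lowers it. Beside these stood 45 other mitosis genes with a median of 17.1 and 25 DNA replication genes with a median of 26.9 CPM per kilobase. The 14 genes of the DREAM and MuvB complexes and their relatives had a median of 13.5, and 13 p53 targets had 9.22. In bulk RNA, few cycling cells with much of these RNAs and many cells with little cannot be told apart.

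Promoters were examined because the members share a known control element. RefSeq windows from 250 bases before to 50 bases after the start were at hand for 33 members, in 43 windows. No window was used for AURKA, BIRC5, BUB3, FOXM1, TPX2, TTK and UBE2C. On both strands 2 motifs were searched, the CHR hexamer as TTTGAA, its complement TTCAAA or the palindrome TTTAAA, and the CCAAT box as CCAAT or its complement ATTGG. A hexamer occurred in 30 of the 33 members (90.9%), against 2247 of the 10554 tested genes with a window (21.3%). Of the 43 windows of members 79.1% held one, against 17.2% of the 15422 windows of tested genes and 24% of all 35116 windows. A CCAAT box occurred in 27 of 33 members (81.8%) and in 43.1% of tested genes. A hexamer within 60 bases downstream of a CCAAT box, read in the direction of transcription, was found in 21 of 33 members (63.6%) and in 2.8% of tested genes. Of the 45 other mitosis genes, 38 had a window and 27 of these (71.1%) held a hexamer, whereas 4 of 22 DNA replication genes (18.2%) did. Such matches describe letters in a window and not binding, and other spellings of the CHR were not searched.

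**Figure D2:**
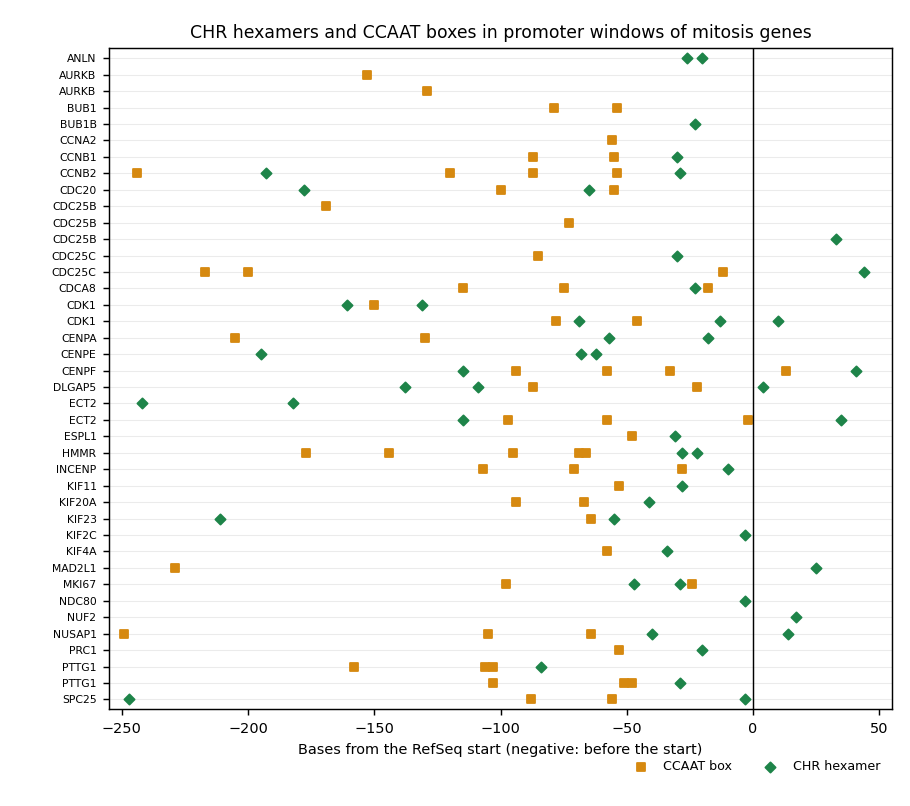
Positions of CHR hexamers (diamonds) and CCAAT boxes (squares) in the promoter windows of the mitosis genes, 1 line per window that holds either, in bases from the annotated start, negative before it. Counted per window, with sites in overlapping windows repeated, CCAAT boxes have a median position of -79 and hexamers of -30, nearer the start.

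As the map of motif positions shows, 31 of 53 hexamers and 43 of 65 CCAAT boxes lay within 100 bases before the start. These were counted per window, so a site shared by overlapping windows of a member, as in PTTG1, was counted more than once. The stretches below are shown because they carry this arrangement in the unspliced DNA just before the start. SPC25 is added because its values differ most between replicates, and CCNA2 because its window holds none of the hexamers searched. They were read from RefSeq (GRCh38.p14), 5′ to 3′ on the strand of the gene, within 120 bases before the start. Capitals mark CHR hexamers and CCAAT boxes. CDC20, the activator of the anaphase-promoting complex, is on the plus strand at chr1:43358861-43358954. ESPL1 is on the plus strand at chr12:53268179-53268298, KIF11, the motor that pushes spindle poles apart, on the plus strand at chr10:92593010-92593129 and KIF4A, a chromosome and midzone motor, on the plus strand at chrX:70289984-70290089. MKI67 is on the minus strand at chr10:128126424-128126543, SPC25 on the minus strand at chr2:168890446-168890528 and CCNA2, which encodes cyclin A2, on the minus strand at chr4:121823934-121824003.
CDC20: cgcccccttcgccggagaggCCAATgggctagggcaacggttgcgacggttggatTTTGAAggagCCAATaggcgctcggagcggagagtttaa
ESPL1: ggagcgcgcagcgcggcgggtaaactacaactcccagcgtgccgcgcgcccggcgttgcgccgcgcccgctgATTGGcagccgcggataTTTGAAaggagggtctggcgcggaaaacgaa
KIF11: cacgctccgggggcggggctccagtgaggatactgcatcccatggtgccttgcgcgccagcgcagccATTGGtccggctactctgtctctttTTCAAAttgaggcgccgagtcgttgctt
KIF4A: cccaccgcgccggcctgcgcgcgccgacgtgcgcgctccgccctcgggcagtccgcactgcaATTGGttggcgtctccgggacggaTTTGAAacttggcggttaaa
MKI67: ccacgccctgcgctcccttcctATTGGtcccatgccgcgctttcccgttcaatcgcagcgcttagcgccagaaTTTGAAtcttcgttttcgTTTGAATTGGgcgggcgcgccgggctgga
SPC25: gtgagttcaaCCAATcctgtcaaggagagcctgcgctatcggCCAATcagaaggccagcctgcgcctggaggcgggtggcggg
CCNA2: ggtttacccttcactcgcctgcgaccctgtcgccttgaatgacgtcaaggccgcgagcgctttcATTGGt
In MKI67 the last hexamer and a CCAAT box on the other strand share a base, and in KIF11 the hexamer reads on the other strand. The stretch of SPC25 holds a pair of CCAAT boxes and ends before annotated exon bases that hold a hexamer at position -3, within 60 bases of the box at -56, so SPC25 counts among the 21 members with the arrangement. The stretch of CCNA2 holds 1 CCAAT box. It also holds the letters cttgaa, which differ from TTTGAA only in the first letter and were not searched. These letters lie upstream of the CCAAT box, not downstream as in the arrangement above. No window of CCNA2, AURKB or BUB1, a checkpoint kinase, held a hexamer of the spellings searched. That does not show that these promoters lack a CHR.

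Values of 8 members in every library show how the groups lay. CDK1 (chromosome 10, 60778331 to 60794852, GRCh38) had 113, 89.4 and 127 CPM with etoposide at time point 0, 104, 138 and 128 CPM at 20, and 101, 111 and 123 CPM at 40. With DMSO, CDK1 had 128, 121 and 141 CPM at 0, 111, 110 and 119 CPM at 20, and 150, 104 and 137 CPM at 40. The arms overlapped at each time point, and within each arm the values at 40 overlapped those at 0. CCNB1, which encodes cyclin B1 (chromosome 5, 69167010 to 69178245), had 121, 121 and 70.1 CPM with etoposide at 0, 124, 133 and 78.5 CPM at 20, and 119, 116 and 86.5 CPM at 40. With DMSO, CCNB1 had 150, 149 and 83.8 CPM at 0, 124, 137 and 73.9 CPM at 20, and 166, 132 and 91.6 CPM at 40. The third replicate of CCNB1 was the lowest in all 6 groups, so the replicates of a group lay farther apart than the arms or the times.

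CDC25B, a phosphatase that activates CDK1 (chromosome 20, 3786772 to 3806121), had 148, 146 and 106 CPM with etoposide at 0, 142, 121 and 122 CPM at 20, and 134, 125 and 115 CPM at 40. With DMSO, CDC25B had 150, 160 and 115 CPM at 0, 148, 147 and 112 CPM at 20, and 132, 121 and 126 CPM at 40. Its values overlapped between the arms at each time point and between 0 and 40 in each arm. FOXM1 (chromosome 12, 2857681 to 2877155) had 257, 274 and 218 CPM with etoposide at 0, 253, 275 and 239 CPM at 20, and 289, 271 and 265 CPM at 40. With DMSO, FOXM1 had 264, 260 and 212 CPM at 0, 261, 281 and 206 CPM at 20, and 229, 289 and 279 CPM at 40. The arms overlapped at each time point. MKI67 (chromosome 10, 128096659 to 128126385) had 261, 338 and 375 CPM with etoposide at 0, 261, 401 and 304 CPM at 20, and 310, 250 and 371 CPM at 40. With DMSO, MKI67 had 278, 231 and 430 CPM at 0, 394, 230 and 311 CPM at 20, and 167, 375 and 457 CPM at 40. The lowest and the highest of the 18 MKI67 values both fell in the DMSO group of time point 40.

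CDC20 (chromosome 1, 43358955 to 43363203) had 124, 123 and 75.7 CPM with etoposide at 0, 142, 119 and 97.7 CPM at 20, and 134, 121 and 91.5 CPM at 40. With DMSO, CDC20 had 140, 148 and 99.5 CPM at 0, 135, 155 and 81.9 CPM at 20, and 134, 136 and 96.7 CPM at 40. Again the third replicate was the lowest of each group. BUB3, which carries checkpoint kinases to kinetochores (chromosome 10, 123154277 to 123170467), had 342, 319 and 360 CPM with etoposide at 0, 333, 377 and 389 CPM at 20, and 323, 323 and 385 CPM at 40. With DMSO, BUB3 had 367, 359 and 407 CPM at 0, 327, 354 and 361 CPM at 20, and 449, 340 and 398 CPM at 40. At 0 and at 40 each etoposide library of BUB3 was below the DMSO library of the same replicate number, with overlap between the groups. AURKA, the kinase of spindle poles (chromosome 20, 56369389 to 56392337), had 91.8, 79.2 and 57.7 CPM with etoposide at 0, 84.1, 102 and 64.6 CPM at 20, and 71.9, 67.7 and 57.7 CPM at 40. With DMSO, AURKA had 97.1, 92.1 and 67.2 CPM at 0, 83.6, 95.6 and 58.1 CPM at 20, and 92.8, 87.6 and 68.2 CPM at 40. It too was lower with etoposide in each of the 3 same-numbered pairs at 0 and at 40, and overlapped between groups.

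The series asks how RNA persists once transcription is blocked. The comparison of time point 40 with 0 addresses this in each arm, only relative to the other RNAs of a library. No mitosis gene changed by edgeR's quasi-likelihood test at a Benjamini-Hochberg adjusted p below 0.05. With etoposide 0 of 40 were called, against 0.204% of tested genes, 29 genes that were all lower at 40. With DMSO 0 of 40 were called, against 0.423%, 60 genes that were all lower. DESeq2 and limma-voom also called 0 of 40, and no member had an unadjusted p below 0.05 in either arm, where 3.02% and 4.05% of tested genes did. With the replicate number as a block, which called 1.01% of tested genes with etoposide and 1.23% with DMSO, the members called were also 0. The test calls few of all genes, so 0 of 40 lies near the background. The median log2 change of the mitosis genes was 0.05 with etoposide (range -0.21 to 0.25) and 0.07 with DMSO (range -0.28 to 0.29), beside medians near 0 for all tested genes.

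A set of 8 early-response genes, whose RNAs are known to be short-lived, were set beside the mitosis genes. ADM, which encodes the peptide adrenomedullin, had 26.8, 32.5 and 25.7 CPM with etoposide at 40, against 129, 116 and 102 CPM with etoposide at 0. With DMSO, ADM had 19.6, 19.5 and 20.9 CPM at 40, against 148, 142 and 118 CPM at 0. ADM fell in both arms with no overlap, with a log2 change of -2.03 with etoposide (SE 0.16, edgeR adjusted p = 1.03e-05) and of -2.76 with DMSO (SE 0.16, edgeR adjusted p = 1.57e-07). All 8 genes were called lower in both arms, with a median log2 change of -1.45 with etoposide and -2.13 with DMSO. They were chosen with earlier results of these data known, so their direction is no independent evidence.

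Read as intervals, the changes of the mitosis genes from 0 to 40 were bounded relative to the other RNAs of a library. Scaling set the typical gene near 0 and no spike-ins were used, so a general fall of RNA would not be seen. In each arm 39 of 40 members had an unadjusted 95% interval wholly above a halving, that is above -1 on the log2 scale, against 78.8% of tested genes with etoposide and 79.5% with DMSO. SPC25 was the exception in both, with intervals of -2.83 to 3.14 with etoposide and -2.73 to 3.19 with DMSO. With the replicate number as a block, all 40 members lay above a halving in both arms, against 88.3% and 87.6% of tested genes. Without the block, all 25 DNA replication genes and all 15 subunits of the anaphase-promoting complex did so in both arms. Of the 45 other mitosis genes 40 did with etoposide and 41 with DMSO. Such an interval depends on the spread of a gene's counts as well as on its change, and it was not particular to the members. None of the 8 early-response genes had such an interval in either arm. They were chosen with earlier results known, so this contrast is no independent evidence. The log2 change of CDK1 was 0.02 with etoposide and 0.01 with DMSO (SE 0.16 each), and that of CCNB1 was 0.05 and 0.03 (SE 0.31 each). FOXM1 had 0.14 and 0.11 (SE 0.14 each), and BUB3 had 0.01 and 0.07 (SE 0.12 each).

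**Figure D3:**
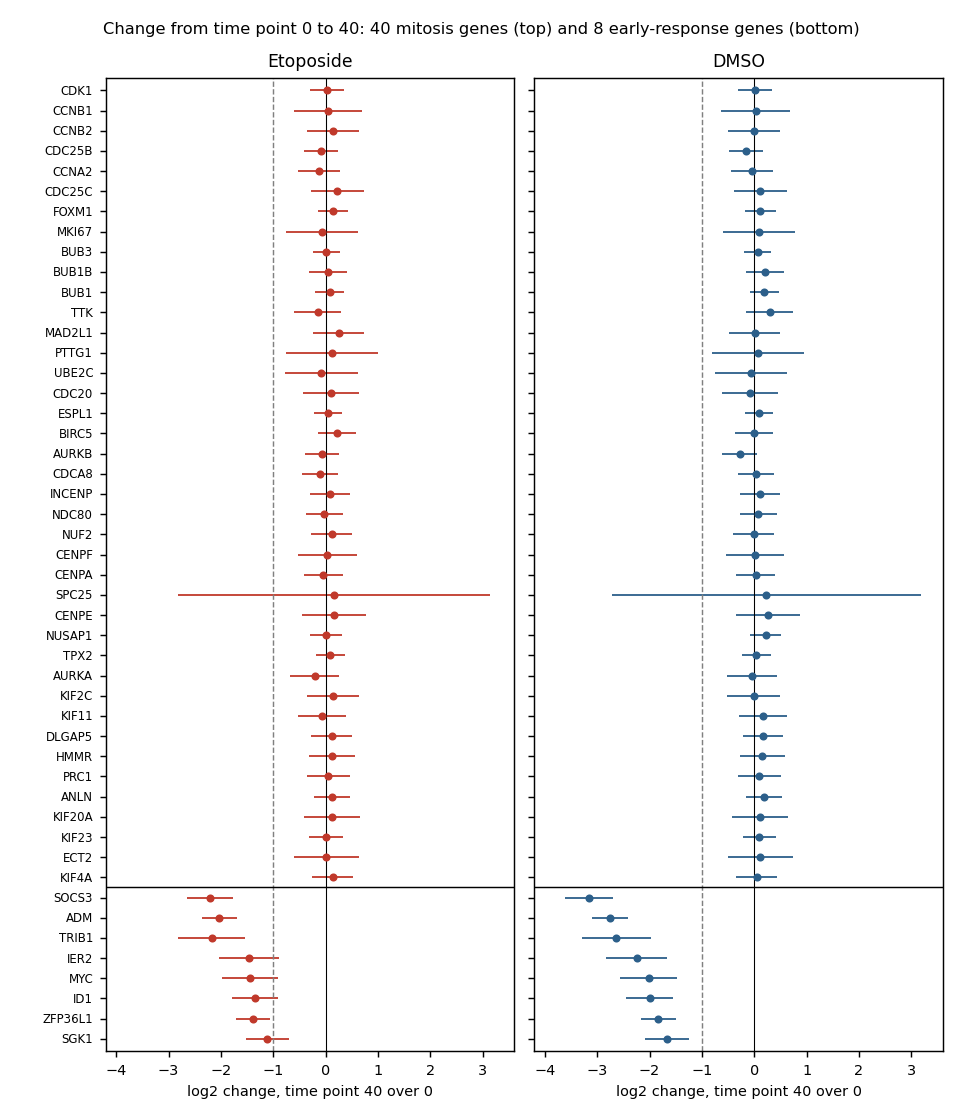
Log2 change from time point 0 to 40 for each mitosis gene and for the 8 early-response genes, with etoposide and with DMSO, with bars for the unadjusted 95% interval. The early-response genes lie between -3.16 and -1.11, and the mitosis genes between -0.28 and 0.29 with intervals that span 0.

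By role, the plot of changes from 0 to 40 holds no group that stands away from 0. AURKB, the kinase of the passenger complex, had the lowest value with DMSO, -0.28 (SE 0.16), and -0.07 with etoposide. AURKA had the lowest value with etoposide, -0.21 (SE 0.22), and -0.04 with DMSO. The highest values were those of MAD2L1, the checkpoint protein that sequesters CDC20, with 0.25 (SE 0.23) with etoposide, and of the checkpoint kinase TTK with 0.29 (SE 0.21) with DMSO. With the replicate block, BIRC5, which encodes survivin, had a log2 change above 0 at an unadjusted p of 0.0296 with etoposide (edgeR adjusted p = 0.636), and AURKB was below 0 at an unadjusted p of 0.0203 with DMSO (edgeR adjusted p = 0.436). Each was the only member below 0.05 in its arm, against 6.44% of tested genes with etoposide and 8.04% with DMSO. Scaling to 112 housekeeping and ribosomal protein genes moved the median of all tested genes with etoposide to -0.10 and that of the mitosis genes to -0.04. At time point 20 no member changed against 0 in either arm, nor did any other tested gene (0% called). CDC25C, the phosphatase that triggers mitotic entry, was the only member with an unadjusted p below 0.05 at time point 20, with a log2 change of 0.54 (SE 0.24) with etoposide, where 1.02% of tested genes passed that mark and 1.4% did with DMSO. With the replicate block 4 members did with etoposide, KIF2C, MAD2L1, CDC25C and BIRC5, all above 0 (2.74% of tested genes), and 0 with DMSO (2.82%).

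The letters TATTTAT, a core of the AU-rich elements known from unstable RNAs, were counted in annotated 3′ untranslated regions. They occurred in 6 of 40 mitosis genes (15%), in 3 of the 8 early-response genes (37.5%) and in 4093 of 12166 tested protein-coding genes (33.6%). The untranslated regions themselves differed in length, with medians of 617, 1030 and 1140 bases in the same order. Per kilobase of these regions the letters occurred 0.213, 0.691 and 0.331 times, again in that order.

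Among 45 other mitosis genes, 1 was called between 0 and 40. FBXO5, which encodes EMI1, an inhibitor of the anaphase-promoting complex, averaged 24.3 ± 5.01 CPM with DMSO at 40 and 45.2 ± 2.46 CPM at 0 (SD, n = 3 each). It fell by 0.89 on the log2 scale (SE 0.17, edgeR adjusted p = 0.030). With etoposide FBXO5 averaged 23.3 ± 3.38 CPM at 40 and 40.1 ± 6.12 CPM at 0 (SD, n = 3 each), a log2 change of -0.78 that missed the threshold (SE 0.17, edgeR adjusted p = 0.109) and passed it with the replicate block (edgeR adjusted p = 0.00139). Nothing was called among 15 subunits of the anaphase-promoting complex, 14 DREAM and MuvB genes or 25 DNA replication genes in any of the 9 comparisons. The highest count at an unadjusted p below 0.05 in these lists was 2 of the 25 DNA replication genes, for etoposide over DMSO at 0 (2.62% of tested genes), and 4 of the 25 in the same comparison with the replicate block (6.29%). CDC25A, a phosphatase of S phase entry among the other mitosis genes, had a log2 change of -0.46 with DMSO (SE 0.18, edgeR adjusted p = 0.759).

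Whether etoposide altered mitosis RNAs was asked at each time point against DMSO. No member was called at 0, 20 or 40 or averaged over the time points, and neither was any other tested gene by edgeR (0% called). Unadjusted p values below 0.05 numbered 0 of 40 at each time point, against 2.62%, 0.754% and 1.01% of tested genes at 0, 20 and 40. DESeq2 and limma-voom also called 0 members. At time point 0 the members had a median log2 value of -0.15, and 34 of 40 were below 0, where 52.4% of tested genes were. At 20 the median was 0.04, with 11 of 40 below 0 (50.3% of tested genes). At 40 it was -0.17, with 39 of 40 below 0 (51.8% of tested genes). FOXM1, at 0.05, was the exception at 40. Related lists also lay below 0. Of the 45 other mitosis genes 41 did at 0 (median -0.12) and 39 at 40 (median -0.13). Of the 25 DNA replication genes 22 did at 0 (median -0.12) and 14 at 40 (median -0.0004). The lower values at 0 were thus not particular to the members. An unadjusted 95% interval wholly above a halving was seen for 38, 39 and 38 of 40 members at 0, 20 and 40, against 82.2%, 82.1% and 81.5% of tested genes, and for all 40 at each time point with the replicate block (89.9%, 89.8% and 90.5%). The exceptions among members were SPC25 at each time point and PTTG1 at 0 and 40. All 25 DNA replication genes and all 15 subunits of the anaphase-promoting complex had such an interval at each time point without the block. These counts describe the lists and carry no test, since members vary together within a library.

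**Figure D4:**
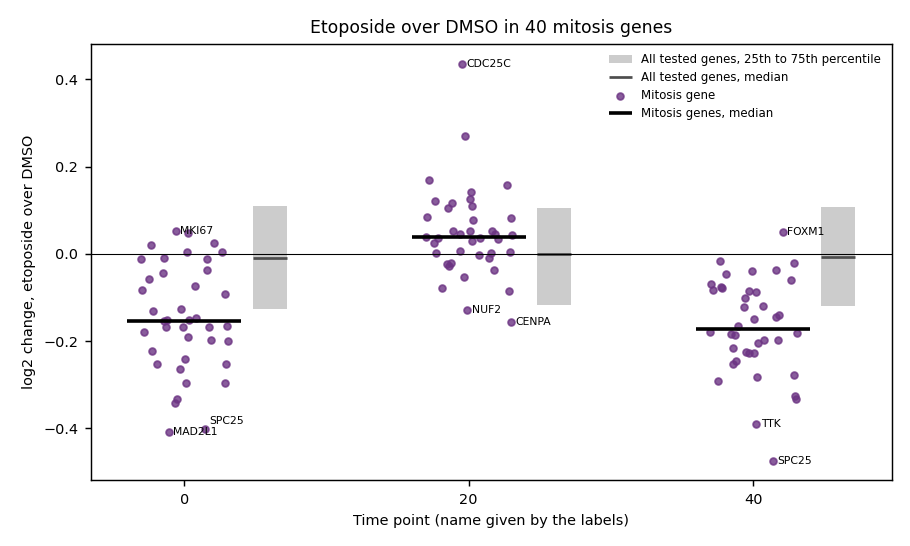
Log2 of etoposide over DMSO for each mitosis gene (points, spread sideways at random) at time points 0, 20 and 40, with black lines at the members' median and grey bars from the 25th to the 75th percentile of all tested genes. The members' medians are -0.15, 0.04 and -0.17, and most points lie below 0 at time points 0 and 40 and above it at 20.

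Summed over the 40 genes, etoposide libraries held 4506, 4498 and 4160 CPM at 0, against 5021, 4632 and 4615 CPM in DMSO libraries. At 20 they held 4539, 5336 and 4159 CPM, against 5033, 4518 and 4004 CPM with DMSO. At 40 they held 4665, 4306 and 4602 CPM, against 4967, 4895 and 5088 CPM with DMSO. The sums did not overlap between arms at 0 and 40 and overlapped at 20. Within the same-numbered pairs of replicates 1, 2 and 3, the members' median log2 value was -0.16, -0.12 and -0.15 at 0, and -0.19, -0.17 and -0.13 at 40. At 20 it was -0.11, 0.24 and 0.05, so the pairs differed in sign. Scaling to housekeeping and ribosomal protein genes moved the median of all tested genes at 0 to 0.10, and that of the members to -0.05, whereas at 40 it left the members at -0.16.

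Most roles lay below 0 at time points 0 and 40, as the plot of etoposide over DMSO shows for the members together. All 6 genes of cyclins, CDK1 and CDC25 phosphatases were below 0 at time point 0, with a median of -0.23 on the log2 scale, among them CDK1 at -0.24 (SE 0.15) and CCNB1 at -0.30 (SE 0.31). All 6 kinetochore genes and all 7 spindle assembly genes were also below 0 there, with medians of -0.20 and -0.15. MAD2L1 had 49.4, 35.5 and 60.6 CPM with etoposide at 0, against 62.2, 49.6 and 81.2 CPM with DMSO. Its groups overlapped, and its log2 value of -0.41 (SE 0.23) was the farthest from 0 at that time point. BIRC5 had 144, 137 and 110 CPM with etoposide at 0, against 178, 180 and 136 CPM with DMSO, also with overlap and with a log2 value of -0.34 (SE 0.17). FOXM1 and MKI67 stood at 0.02 and 0.05.

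At 40, TTK had 24.1, 27.3 and 38.8 CPM with etoposide, against 45.0, 29.2 and 43.9 CPM with DMSO. The groups overlapped, and the log2 value was -0.39 (SE 0.21). CENPA, the histone that marks centromeres, had 20.6, 21.7 and 17.8 CPM with etoposide at 40, against 26.2, 24.2 and 24.9 CPM with DMSO. Its groups did not overlap at 40, with a log2 value of -0.33 (SE 0.18). Averaged over the time points CENPA was at -0.24 (SE 0.10), the only member with an unadjusted p below 0.05 there (edgeR adjusted p = 0.9999), where 1.8% of tested genes passed that mark. AURKA stood at -0.33 (SE 0.22) at 40, and CDC25C at 0.44 (SE 0.24) had the highest value at 20.

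The replicate numbers paired the libraries, and with the number as a block 7 members had an unadjusted p below 0.05 at time point 0, against 6.29% of tested genes. These were MAD2L1, BIRC5, KIF2C, CCNB1, CDC20, CDC25C and AURKB, all lower with etoposide, and none passed adjustment (edgeR adjusted p of 0.754 at the least). At 20 there was 1, CDC25C, above 0 (2.48% of tested genes). At 40 there were 6, CENPA, CCNB1, TTK, KIF11, BUB3 and AURKA, all lower with etoposide, against 3.63% (edgeR adjusted p of 0.997 at the least). Averaged over the time points there were 8, against 5.31%. After adjustment the block called 0 members and 0.00705% of tested genes at 40, and 0 members and 0.0282% on average. The test of the difference between arms in the change from 0 to 40 called 0 of 40 and 0% of tested genes, with 0 members at an unadjusted p below 0.05 with or without the block, against 1.33% of tested genes without it and 3.43% with it. The median of that difference over the members was -0.03.

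Length moved with these values. Across the 40 members, which are not independent replicates, Spearman's rho between coding length and the log2 value of etoposide over DMSO was 0.58 at 0, 0.39 at 20 and 0.25 at 40, beside 0.30, 0.13 and 0.15 over all 12166 genes with a coding length. In single libraries set against the mean of their replicate number, the same rho over the members ran from -0.82 to 0.82. The part of this trend in the differences between arms was not tested.

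Etoposide's own targets and the p53 response framed the comparison. TOP2A, the topoisomerase of dividing cells, averaged 390 ± 24.95 CPM with etoposide at 0 and 403 ± 42.1 CPM with DMSO (SD, n = 3 each), and 409 ± 41.3 CPM and 445 ± 45.8 CPM at 40. TOP2B, the form found in all cells, had log2 values of etoposide over DMSO of -0.04, 0.09 and -0.06 at 0, 20 and 40 (SE 0.18 each). CDKN1A, which encodes p21, averaged 209 ± 53.8 CPM with etoposide at 0 and 224 ± 40.3 CPM with DMSO, and 214 ± 49.6 CPM and 166 ± 12.8 CPM at 40 (SD, n = 3 each). No comparison called any of these genes. Of 13 p53 targets 1 was called, BTG2, an antiproliferative gene. It averaged 0.498 ± 0.351 CPM with DMSO at 40 and 4.21 ± 0.185 CPM at 0 (SD, n = 3 each), and fell by 3.03 on the log2 scale (SE 0.57, edgeR adjusted p = 0.024). With etoposide BTG2 averaged 5.36 ± 2.82 CPM at 40, a log2 value of 3.38 over DMSO that missed the threshold (edgeR adjusted p = 0.326) and passed it with the replicate block (edgeR adjusted p = 0.00282). The DMSO mean of BTG2 at 40 lay close to the detection floor, so the sizes of both log2 values rest on few counts.

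More mitosis genes were called between replicate numbers than between treatments or times, in tests of unlike power. The replicate test compared 6 libraries of each number, whereas comparisons of single groups had 3 libraries on each side. The counts of calls therefore do not rank the sizes of these differences. A test of the replicate number across the 6 groups called 25 of 40 members, against 52.9% of tested genes, so a difference between replicates was common to many genes. Of the 25, 19 were lower and 6 higher in the third replicate than in the mean of the others. This split was not counted over all called genes, so it describes the members only. The median log2 value of replicate 3 over replicate 1 was -0.21 over the 40 members and -0.02 over all tested genes. SPC25 (chromosome 2, 168834132 to 168913371) had 0.675, 1.17 and 1.86 CPM as the lowest, median and highest of the 6 libraries of replicate 3. It had 13.7, 16.3 and 24.4 CPM in replicate 1 and 9.73, 16.2 and 18.4 CPM in replicate 2. Its lowest count was 8, and all 6 libraries of replicate 3 lay far below the other 12. The log2 value of replicate 3 over replicate 1 was -3.85. The joint test of all replicate numbers, which is not a test of this pair, gave SPC25 an edgeR adjusted p of 8.62e-13.

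PTTG1 had 63.0, 72.1 and 78.9 CPM as the lowest, median and highest of replicate 3, against 119, 142 and 166 CPM in replicate 1 and 125, 141 and 152 CPM in replicate 2 (edgeR adjusted p = 5.04e-10). UBE2C had 81.2, 87.4 and 90.8 CPM in replicate 3, against 120, 135 and 151 CPM in replicate 1 and 129, 151 and 172 CPM in replicate 2 (edgeR adjusted p = 1.37e-08). CCNB1 averaged 80.7 CPM in replicate 3, against 134 CPM in replicate 1 and 131 CPM in replicate 2 (edgeR adjusted p = 4.12e-08). In all, 9 members had every library of replicate 3 below the other 12, against 9.04% of tested genes. Beside SPC25, PTTG1, UBE2C and CCNB1 these were CDC20, cyclin B2 (CCNB2), the microtubule depolymerase KIF2C, the cytokinesis motor KIF20A and the midzone bundler PRC1. No member had every library of replicate 3 above the others, as 9.83% of tested genes did.

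**Figure D5:**
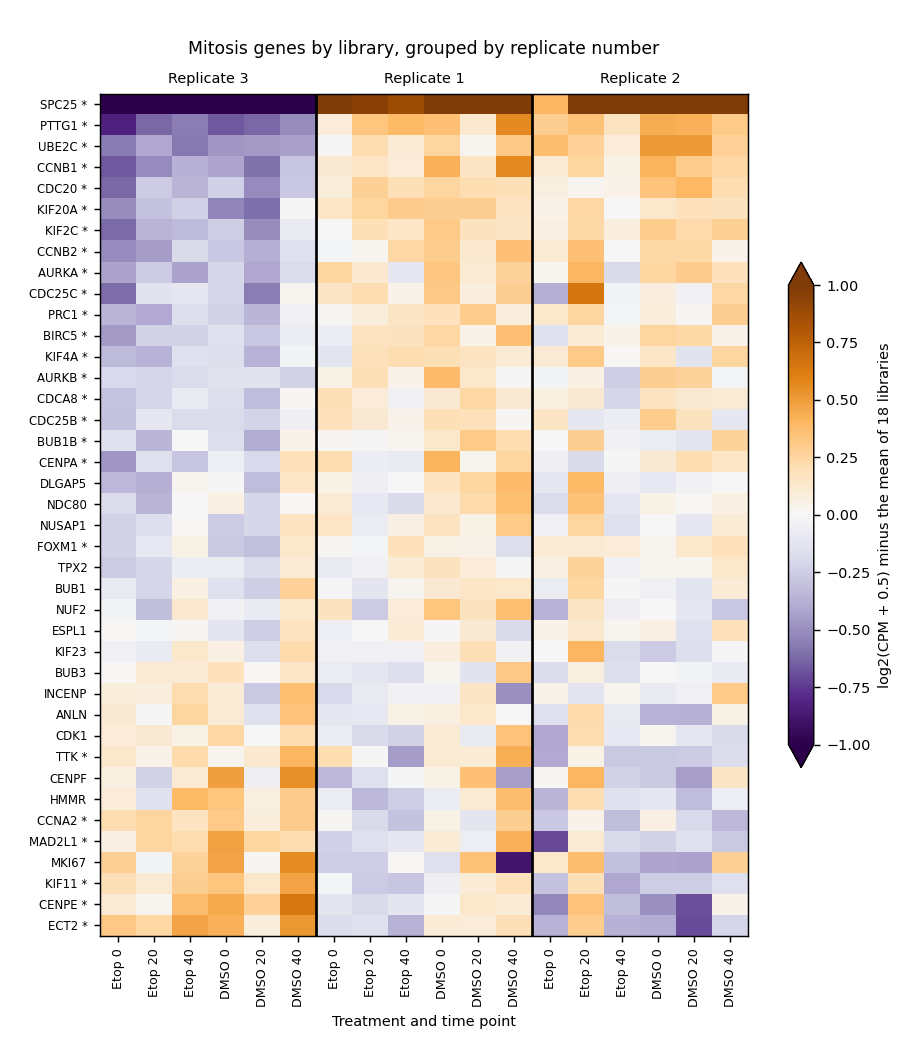
Log2(CPM + 0.5) of each mitosis gene in each library minus its mean over 18 libraries, in blocks by replicate number, with asterisks at the 25 genes called between replicate numbers. SPC25, PTTG1, UBE2C and CCNB1 at the top are low throughout replicate 3, and ECT2, CENPE and KIF11 at the bottom are high there.

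The 6 called members with a higher mean in replicate 3 than in the others were ECT2, KIF11, MAD2L1, CCNA2, CENPE and TTK. They lie toward the foot of the plot by library, among members not called. The test took all replicate numbers together and gave no direction. TTK averaged 37.1 CPM in replicate 3, 35.2 CPM in replicate 1 and 28.4 CPM in replicate 2, so replicate 2 stood apart for this gene. ECT2, the exchange factor that activates RhoA for cytokinesis, had 104, 127 and 140 CPM as the lowest, median and highest of replicate 3. It had 76.0, 96.3 and 112 CPM in replicate 1 and 60.03, 75.8 and 120 CPM in replicate 2, with overlap (edgeR adjusted p = 0.00064). The 15 members not called included CDK1, BUB3, MKI67, CENPF, KIF23 and ESPL1. Cyclin B1 and cyclin A2 thus lay on opposite sides, CCNB1 lower and CCNA2 higher in replicate 3. Coding length moved with this difference as well, with a rho of 0.49 over the members and 0.26 over all genes between coding length and the log2 value of replicate 3 over 1, and its part was not tested. With replicate 3 left out, 0 members were called between replicates 1 and 2.

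Some counts are uncertain because exons of another gene share their bases, and whether counting used strand is not given in the sources used here. ITFG2 shares 15.9% of the exon bases of FOXM1, EXOSC9 9.08% of those of CCNA2, FAM53C 8.78% of those of CDC25C and PRC1-AS1 7.35% of those of PRC1, each on the opposite strand. SLC35F6 shares 6.96% of those of CENPA on the same strand, and BUB1B-PAK6, with 0 counts in all libraries, 10.2% of those of BUB1B.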

How the data were processed

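Counts per gene were deposited by the authors as 1 table per library, in whole numbers keyed by Ensembl gene, and were used as deposited. The submitters' processing notes name bcl2fastq, HISAT2, featureCounts and the build GRCh38 (hg38); the sources used here give neither versions nor a strand setting. Per the labels' protocols, libraries were stranded poly(A) mRNA. Of 58051 identifiers, 57447 matched GENCODE 29 and gave symbols and coordinates.

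Groups were taken from the labels. Counts were tested with edgeR 4.0.16 (R 4.3.3) by the quasi-likelihood F test with TMM scaling and default filterByExpr, in 1 model of 6 groups over 18 libraries. The model was tested on simulated data. Adjusted p values are Benjamini-Hochberg over 14186 genes, with a threshold of 0.05. CPM use TMM-scaled library sizes, n = 3 a group. DESeq2 1.42.0, limma 3.58.1 (voom), other scalings and filters, left-out libraries and a replicate block were alternatives. Deviations from the group mean correlated between libraries of the same number, with values of 0.359 to 0.911 in 45 of 45 pairs, and 18 of 18 libraries correlated best with their own number, so the numbers were taken to pair libraries. The labels call the replicates independent. Differences of 40 from 0 are relative to all RNA of a library, without spike-ins. Floors cover counting error only, and the 95% intervals of log2 changes come from the edgeR fit and include the spread between replicates.

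The members and gene lists were chosen with earlier results of these data known. All 40 members could be named. Of other lists up to 4 genes a comparison with the smallest p could be named, with TOP2A, TOP2B and CDKN1A throughout. Promoter windows are RefSeq's (GRCh38.p14). Python 3.11.15 and matplotlib 3.10.9 made the tables and figures.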

Additional observations from a re-analysis of the deposited data

How the results depend on the processing

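No mitosis gene was called in any of the 9 comparisons, nor in 224 further fits over 35 settings, which included DESeq2, limma-voom, other scalings and filters, and each library left out. With replicate number as a block the calls were also 0, and the members' median log2 value was -0.158 at time point 0, 0.0424 at 20 and -0.164 at 40 for etoposide over DMSO, and 0.0686 with etoposide and 0.0695 with DMSO for 40 over 0. The medians moved more than the calls. At time point 0 (-0.153) the median was -0.124 with library size scaling, -0.0479 with housekeeping and ribosomal protein scaling and -0.132 with no filter. Combined with the block, the housekeeping scaling gave -0.0531 and library size -0.13. Leaving out 1 replicate gave -0.172 to -0.0644, with -0.0644 without the third etoposide library and -0.0778 without the first DMSO library. At 40 the range was -0.19 to -0.127. Averaged over time points the block with housekeeping scaling gave -0.0333. For 20 over 0 with DMSO, leaving out 1 replicate gave -0.161 to 0.0194. The difference between arms in the change to 40 (-0.034) was -0.0576 with library size scaling, -0.12 with housekeeping scaling, -0.0633 with no filter and -0.126 with the block and housekeeping scaling. With 1 replicate left out it ran from -0.0722 to 0.017, and with the block and without DMSO replicate 2 of time point 0 it was 0.0119. The cause of these shifts was not tested. The replicate block combined with other settings was added after seeing the data. The 25 genes called between replicate numbers became 0 without replicate 3, 28 without replicate 1 and 29 without replicate 2, so the third replicate carried these calls. Without the block, the interval of SPC25 from 0 to 40 with etoposide ran from -2.83 to 3.14, so even large changes of this gene were not detectable in that fit, whereas with the block it lay above a halving.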
